A study of Mus musculus with 6 samples.

Results

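Transcripts of 10 enzymes that make serine and carry its one-carbon units on folate were followed in 6 CT26 tumours. They were chosen by gene symbol, and each of the 10 symbols matched 1 of the 40303 gene models in the table. CT26, a mouse colon carcinoma line, had been implanted under the skin of wild-type BALB/c mice, which are of the same strain as the line. Of these mice, 3 were given PEGylated glutaminase, which hydrolyses circulating glutamine to glutamate, by intraperitoneal injection of 50 IU per kg. The other 3 were given vehicle (PBS with 10% glycerol). There were 2 injections, spaced 3 days apart, after which frozen tumour tissue of each mouse gave 1 library of poly-A RNA; the sources used here give neither age nor sex. The whole tissue was sequenced, so tumour and host cells are mixed, and in such bulk samples fewer cells of a type and less RNA per cell cannot be told apart.

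Cells make serine from the glycolytic intermediate 3-phosphoglycerate through Phgdh, Psat1 and Psph, and Psat1 takes its amino group from glutamate, which links the route to glutamine. Serine then gives a carbon to folate through serine hydroxymethyltransferase, Shmt2 in mitochondria and Shmt1 in the cytosol. In mitochondria Mthfd2 and Mthfd1l oxidise that carbon to formate, and in the cytosol the 3-function enzyme Mthfd1 can take formate up again for purine and thymidylate synthesis. Aldh1l1 and Aldh1l2 burn 10-formyl-folate to carbon dioxide with formation of NADPH, the first in the cytosol and the second in mitochondria. Several of these genes, among them Phgdh, Psat1, Shmt2, Mthfd2 and Aldh1l2, are known targets of Atf4, the transcription factor of the amino acid response.

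The upstream sequences of both serine hydroxymethyltransferases and of the cytosolic and mitochondrial methylene-folate dehydrogenases are shown, because these partners are compared below. Each runs 5′ to 3′ over the 250 bases before the start site of RefSeq (GRCm38.p6; chr11:60811266-60811515, minus strand for Shmt1; chr12:76254982-76255231, plus strand for Mthfd1; chr10:127522445-127522694, minus strand for Shmt2; chr6:83317605-83317854, minus strand for Mthfd2), and capitals mark the CCAAT box on either strand (CCAAT or ATTGG).
Shmt1: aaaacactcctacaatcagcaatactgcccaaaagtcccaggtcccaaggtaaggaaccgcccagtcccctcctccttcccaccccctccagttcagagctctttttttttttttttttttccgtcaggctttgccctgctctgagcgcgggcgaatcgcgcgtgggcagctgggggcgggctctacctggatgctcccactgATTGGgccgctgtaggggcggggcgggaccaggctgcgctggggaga
Mthfd1: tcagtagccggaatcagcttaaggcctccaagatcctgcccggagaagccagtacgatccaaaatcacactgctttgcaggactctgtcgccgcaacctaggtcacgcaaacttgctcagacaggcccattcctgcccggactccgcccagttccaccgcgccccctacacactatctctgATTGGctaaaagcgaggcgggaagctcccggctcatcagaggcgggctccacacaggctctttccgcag
Shmt2: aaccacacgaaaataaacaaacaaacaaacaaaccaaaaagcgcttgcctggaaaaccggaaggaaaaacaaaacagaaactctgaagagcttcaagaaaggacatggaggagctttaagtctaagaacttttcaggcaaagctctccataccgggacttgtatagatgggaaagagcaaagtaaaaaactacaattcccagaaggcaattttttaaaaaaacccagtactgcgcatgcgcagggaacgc
Mthfd2: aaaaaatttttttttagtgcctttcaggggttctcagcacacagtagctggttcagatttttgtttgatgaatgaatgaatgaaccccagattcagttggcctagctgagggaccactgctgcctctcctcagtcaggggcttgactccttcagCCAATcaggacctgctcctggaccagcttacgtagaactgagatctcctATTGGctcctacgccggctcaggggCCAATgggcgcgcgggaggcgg
Mthfd2 has 3 CCAAT boxes in this window, Shmt1 and Mthfd1 have 1 each, and Shmt2 has 0. Aldh1l2 has no entry, so no window of it was searched. The 9 enzymes with an entry have 10 windows, since Psat1 has 2 start sites. Of these 10 windows 7 (70%) held the box, against 33.8% of all 32851 upstream windows of this length. The letters of an Atf4 element (TGATGNAA, both strands) were in 0 of the 10 windows, which leave out Aldh1l2, and in 3.45% of all windows. Those of the E-box (CACGTG) were in 0 of the 10 and 6.02%, and those of the cAMP response element (TGACGTCA) in 0 of the 10 and 1.55%. None of these motifs overlap in the windows shown, and a match of letters is a description, not a site of binding.

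The libraries held 16455052 to 18051480 reads, and the 10 enzymes had 39 (Aldh1l1) to 15147 (Phgdh) reads in a library. Together they took 0.194%, 0.201% and 0.215% of reads in the vehicle tumours and 0.265%, 0.248% and 0.239% in the PEG-glutaminase tumours. The shares of the groups did not overlap. Expression is given in normalized counts, the reads of a gene divided by the size factor of its library. Vehicle 1 stood apart by skin transcripts: the 7 keratinocyte markers sum to 7860 normalized counts there, while the PEG-glutaminase tumours have 61.4 to 65.3. PEG-glutaminase 2 had the lowest sum of the 11 T and NK cell markers, 544, where the vehicle tumours had 4080 to 4871. Markers of hepatocytes, cells known for high Aldh1l1, sum to at most 25.5 (3 of 4 in the table, with Ttr at 0 in every library). Of the 5 epithelial markers, Krt18 had 131 to 263 normalized counts, while Vil1 stayed at or under 4.12 and Epcam under 10 outside vehicle 1, where it had 58.0. Krt8 had 6.87 to 9.66 in vehicle and 9.90 to 27.8 in PEG-glutaminase tumours, low counts without overlap (limma adjusted p = 0.332). Cdx2 had 3.86 to 17.7 and 13.4 to 29.7, with overlap (limma adjusted p = 0.247).

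The comparison asks how the transcripts of this pathway differ in tumours after PEG-glutaminase. Of the 10 enzymes 9 were higher in the PEG-glutaminase group and 1, Aldh1l1, was lower, with a median log2 difference of 0.25 where the median over all 13557 tested genes was -0.00005. None passed limma at an adjusted p of 0.05 (0 of 10; 7 at an unadjusted p under 0.05, all higher), against a background of 0.0369% of tested genes called (0.00738% as higher). At an unadjusted p under 0.05 the background was 18.4% of genes, 8.92% as higher. edgeR called 0 of the 10 as well, and 0% of all genes, with 2554 genes at an unadjusted p under 0.05. DESeq2 on the recovered reads called 3 of the 10, Shmt1, Mthfd1 and Aldh1l2, all higher, where it called 4.18% of genes and 1.87% as higher. In 8 of the 10 every PEG-glutaminase tumour was above every vehicle tumour, which held for 13.1% of tested genes, and in 0 of the 10 was every one below, against 12.7%. Differences are on the log2(value + 1) scale, where 1 is the pseudocount.

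**Figure D1:**
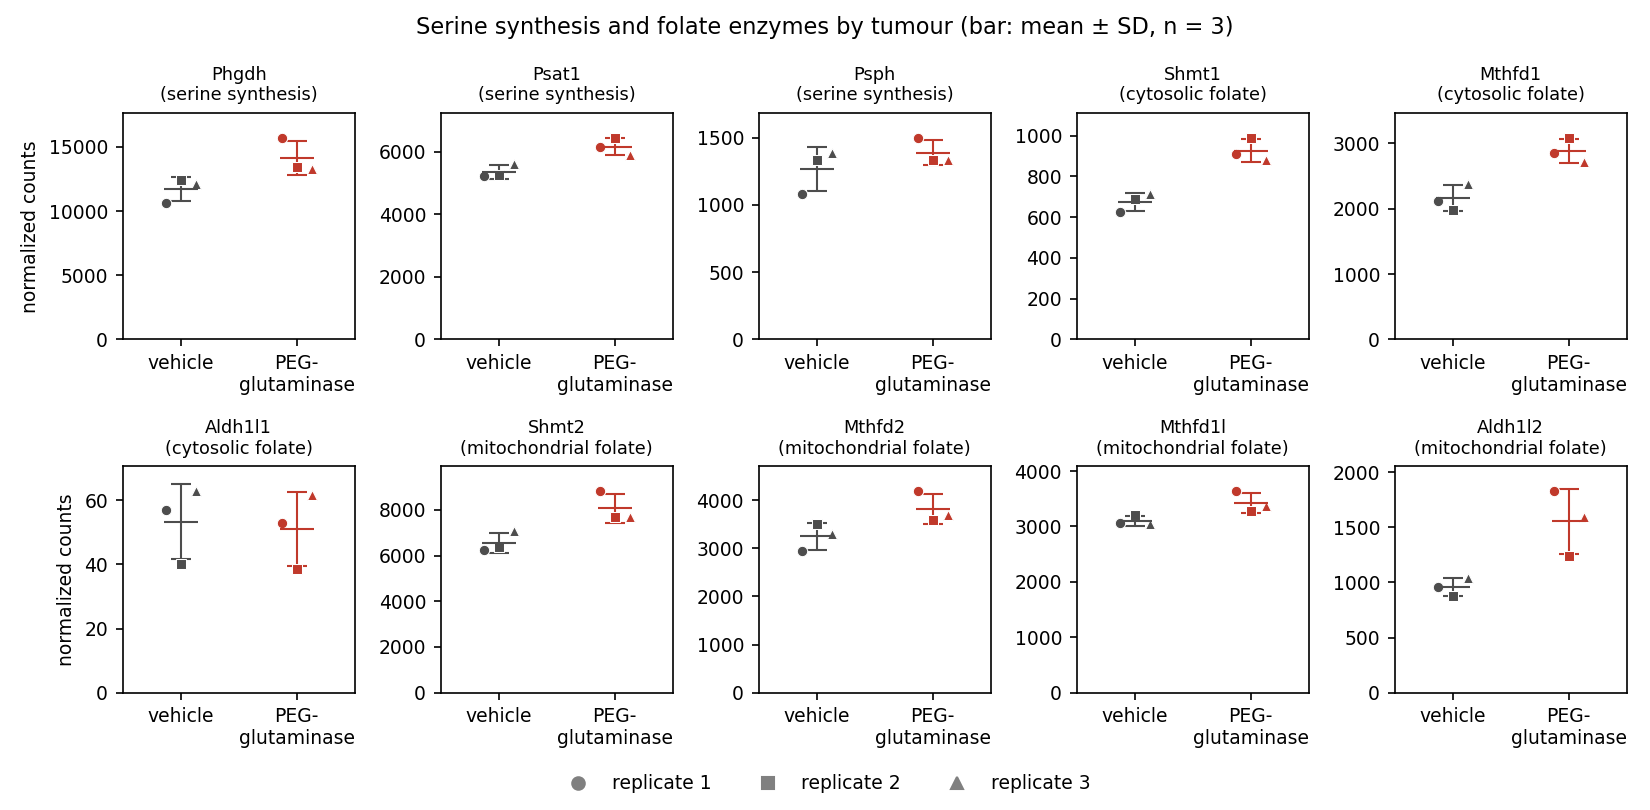
Normalized counts of the 10 enzymes (vertical axes, each starting at 0) in the 3 vehicle and 3 PEG-glutaminase tumours; points are tumours, bars the mean ± SD. In 8 panels the groups do not overlap, and in the panels of Psph and Aldh1l1 they do.

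In serine synthesis, Phgdh (ENSMUSG00000053398), which commits 3-phosphoglycerate to serine, had 10621, 12400 and 12117 normalized counts in vehicle 1, 2 and 3 and 15688, 13462 and 13248 in PEG-glutaminase 1, 2 and 3. The groups did not overlap, and PEG-glutaminase 1 stood above the other treated tumours. The fitted ratio was 1.21-fold, with a 95% interval of 1.03 to 1.41 (log2 0.27 ± 0.10 SE; limma adjusted p = 0.218). Phgdh has 21 processed pseudogenes in GENCODE M21 that match it at 87.7% to 98.7% identity, so reads common to them could be split or dropped in counting; the 5 of them found in the table have at most 3.46 normalized counts.

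Psat1 (ENSMUSG00000024640), the aminotransferase that uses glutamate, had 5207, 5238 and 5610 normalized counts in the vehicle tumours and 6144, 6430 and 5897 in the treated tumours. Again the groups were apart, here with PEG-glutaminase 2 highest. Its ratio was 1.15-fold (95% interval 1.02 to 1.30; log2 0.20 ± 0.08 SE; limma adjusted p = 0.224). Psph (ENSMUSG00000029446), the phosphatase that releases serine, had 1081, 1331 and 1386 against 1496, 1333 and 1331 normalized counts. These values overlap, since vehicle 3 lies above PEG-glutaminase 2 and 3, and the ratio of 1.10-fold has an interval of 0.935 to 1.29 (limma adjusted p = 0.496). Without vehicle 1, its lowest tumour, the log2 difference of Psph was 0.03 in place of 0.14. Its exons share 452 bases with Cct6a on the other strand, and the sources used here do not say whether counting used the strand; Cct6a stood at a log2 difference of 0.14 ± 0.09.

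Among the cytosolic folate enzymes, Shmt1 (ENSMUSG00000020534) had 627, 688 and 713 normalized counts in the vehicle tumours and 911, 987 and 878 in the treated tumours. The lowest treated tumour was well above the highest vehicle tumour. The ratio was 1.37-fold (95% interval 1.19 to 1.57; log2 0.45 ± 0.09 SE; limma adjusted p = 0.112, DESeq2 adjusted p = 0.00748). Exons of Shmt1 share 184 bases with Smcr8 on the other strand, which stood at a log2 difference of 0.20 ± 0.09 without overlap between groups. Mthfd1 (ENSMUSG00000021048), which loads formate onto folate and interconverts its one-carbon forms, had 2120, 1982 and 2382 against 2844, 3078 and 2717 normalized counts. As with Shmt1, the groups were apart and PEG-glutaminase 2 was the highest. Its ratio was 1.33-fold (95% interval 1.16 to 1.53; log2 0.42 ± 0.09 SE; limma adjusted p = 0.114, DESeq2 adjusted p = 0.0089). The authors' deposited table has both below 0.05, with log2 fold changes of 0.38 for Shmt1 (adjusted p = 0.00446) and 0.35 for Mthfd1 (adjusted p = 0.00973), where 3.94% of the genes with an adjusted p in that table were below 0.05 (1.98% as higher). No other of the 10 was below 0.05 there, and Aldh1l2 stood at 0.49 (adjusted p = 0.0649 in the authors' deposited table). The means in that table differ from those of the 6 libraries, 791 against 801 for Shmt1, so its calls do not rest on the same values.

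Aldh1l1 (ENSMUSG00000030088), the cytosolic 10-formyl-folate dehydrogenase, was the exception in direction and in depth. It had 57.0, 40.2 and 62.8 normalized counts in vehicle and 52.8, 38.6 and 61.7 in PEG-glutaminase tumours. The values are interleaved and rest on 39 to 64 reads a library. The ratio of 0.957-fold has an interval from 0.638 to 1.44 (limma adjusted p = 0.918), which includes the ratio seen in Shmt1. Its sign turned to 0.06 without vehicle 3 and to 0.12 without PEG-glutaminase 2.

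Among the mitochondrial folate enzymes, Shmt2 (ENSMUSG00000025403), the main entry of serine carbon into mitochondrial folate, had 6260, 6366 and 7057 normalized counts in the vehicle tumours and 8809, 7707 and 7690 in the treated tumours. The groups did not overlap. The ratio was 1.23-fold (95% interval 1.07 to 1.41; log2 0.30 ± 0.09 SE; limma adjusted p = 0.156, DESeq2 adjusted p = 0.052). Mthfd2 (ENSMUSG00000005667), the dehydrogenase and cyclohydrolase of proliferating cells, had 2945, 3508 and 3297 against 4185, 3596 and 3696 normalized counts. Vehicle 2 came close to the lowest treated tumour without reaching it, and the ratio was 1.18-fold (95% interval 1.02 to 1.36; limma adjusted p = 0.23). Mthfd1l (ENSMUSG00000040675), which releases formate, had 3057, 3210 and 3051 against 3633, 3284 and 3361 normalized counts. It was the smallest of the 4 mitochondrial differences, 1.10-fold with an interval of 0.98 to 1.24 (limma adjusted p = 0.342).

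Aldh1l2 (ENSMUSG00000020256), the mitochondrial 10-formyl-folate dehydrogenase, had 958, 876 and 1044 normalized counts in the vehicle tumours. The treated tumours had 1826, 1241 and 1594, all higher, with PEG-glutaminase 2 the lowest of them. The ratio was 1.60-fold (95% interval 1.29 to 1.99), the largest of the 10, and its log2 difference of 0.68 ± 0.14 SE (limma adjusted p = 0.114, DESeq2 adjusted p = 0.000627) lay at the 97.8th percentile of tested genes. Without PEG-glutaminase 2 the log2 difference was 0.83 and Aldh1l2 passed limma (adjusted p = 0.0218), where limma called 0.148% of genes, 0.0739% as higher. With vehicle 1 left out as well, Aldh1l2 stood at 0.83 and did not pass (limma adjusted p = 0.0614). Its exons share 1056 bases with those of a gene on the other strand, D10Wsu102e (Nopchap1 in the table), so part of the reads could belong to either. That neighbour had 1040 to 1126 normalized counts in vehicle and 1131 to 1230 in PEG-glutaminase tumours, a log2 difference of 0.15 ± 0.08.

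With no filter on low values limma tested 23228 genes and called 3 of the 10, namely Shmt1, Mthfd1 and Aldh1l2 (adjusted p of 0.0474, 0.0486 and 0.0295), against 0.586% of genes and 0.28% as higher. These are the same 3 that DESeq2 called. With vehicle 1 and PEG-glutaminase 2 both left out, 10 of 10 were higher, 0 passed limma, and 8 did not overlap, which held for 24.4% of genes in that smaller comparison.

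**Figure D2:**
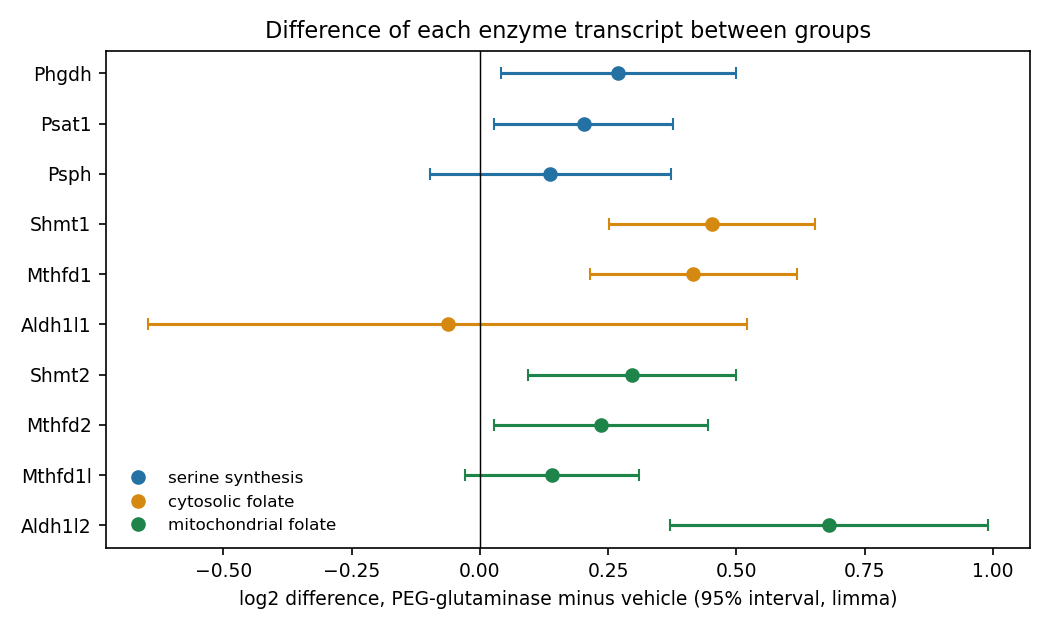
Log2 difference between PEG-glutaminase and vehicle tumours for each enzyme (horizontal axis), with its 95% interval from limma, coloured by branch. Intervals of 7 enzymes lie above 0, and those of Psph, Mthfd1l and Aldh1l1 include it.

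The cytosolic branch had a median log2 difference of 0.42 (3 enzymes, 2 of them higher), the mitochondrial branch one of 0.27 (4 of 4 higher) and serine synthesis one of 0.20 (3 of 3 higher). Partner enzymes were then compared within each tumour, as mitochondrial minus cytosolic log2(value + 1); these are values with no test. Shmt2 minus Shmt1 was 3.28 ± 0.06 in vehicle and 3.12 ± 0.15 in PEG-glutaminase tumours (SD, n = 3), with overlap. Mthfd2 minus Mthfd1 was 0.59 ± 0.20 and 0.41 ± 0.17, also with overlap. Mthfd1l minus Mthfd1 was 0.53 ± 0.17 in vehicle and 0.25 ± 0.14 in PEG-glutaminase tumours, and the groups were apart by a small margin, with the nearest tumours at 0.36 and 0.35. Aldh1l2 minus Aldh1l1 went the other way, from 4.16 ± 0.21 to 4.91 ± 0.22, without overlap. The mean over the mitochondrial branch minus that over the cytosolic branch was 2.72 ± 0.14 and 2.79 ± 0.12, and without both Aldh1l enzymes it was 1.74 ± 0.08 and 1.53 ± 0.15; the groups overlap in both.

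**Figure D3:**
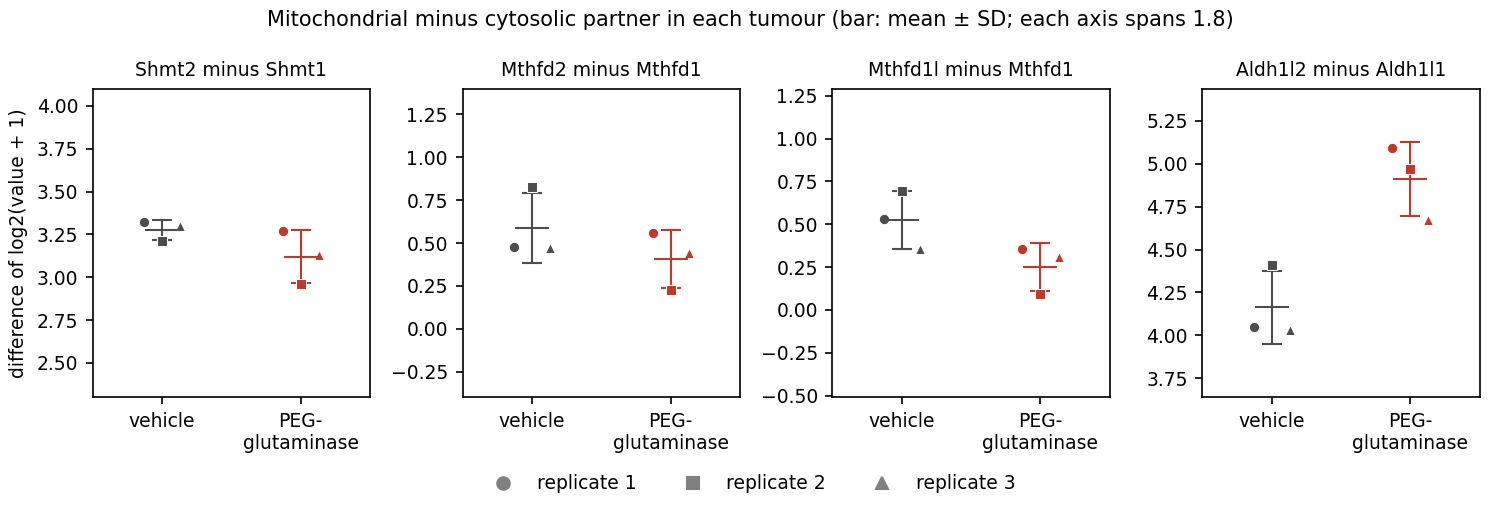
Mitochondrial minus cytosolic partner in each tumour, as a difference of log2(value + 1) (vertical axes of equal span, not starting at 0); bars are the mean ± SD of 3 tumours. The dehydrogenase pair on the right is higher in all treated tumours, and the first 2 pairs overlap between groups.

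Per length of the longest transcript, the order of levels was the same in both groups. Phgdh came first, with 6187 ± 505 normalized counts per kilobase in vehicle and 7466 ± 714 in PEG-glutaminase tumours (SD, n = 3), followed by Shmt2 with 2866 ± 189 and 3525 ± 280. Psat1 (2045 ± 85.7 in vehicle), Mthfd2 (1559 ± 136), Mthfd1l (842 ± 24.4), Mthfd1 (667 ± 62.7), Psph (440 ± 56.6) and Shmt1 (236 ± 15.5) came next, per kilobase. Aldh1l2 (159 ± 13.9) and Aldh1l1 (12.8 ± 2.81) were the lowest. Neighbours in this order did not overlap in the vehicle group, and in the PEG-glutaminase group Mthfd1l and Mthfd1 did, at 929 ± 49.8 and 888 ± 56.5. Per length Shmt2 was thus above Shmt1, and Mthfd2 above Mthfd1, in every tumour. The 4 mitochondrial enzymes summed to 5.94 ± 0.37 times the 3 cytosolic ones per kilobase in vehicle and 5.36 ± 0.59 times in PEG-glutaminase tumours, with overlap.

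**Figure D4:**
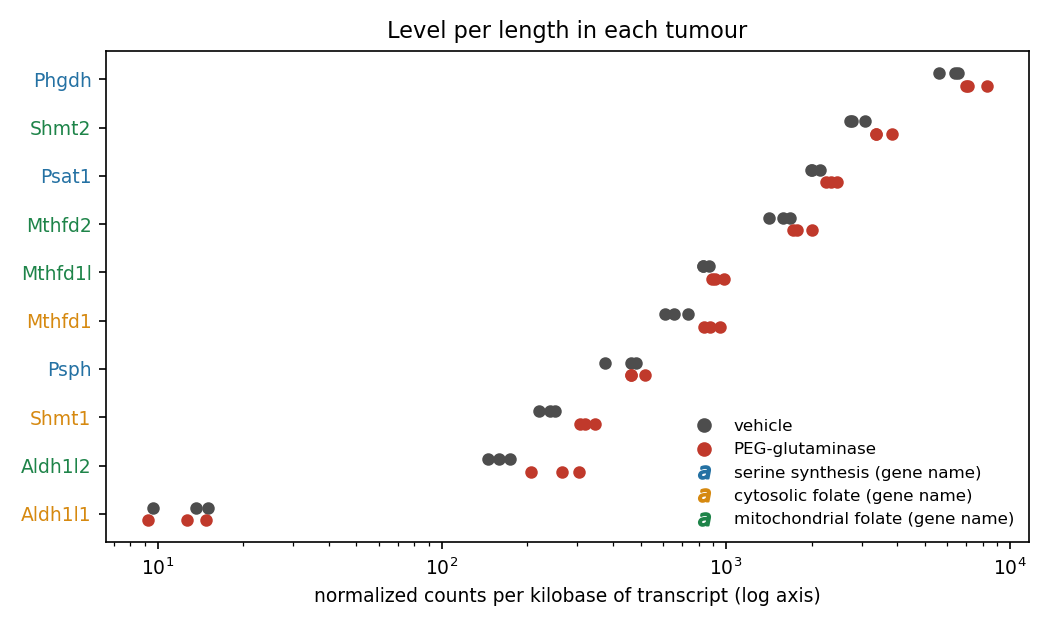
Normalized counts per kilobase of the longest transcript (horizontal log axis) for each enzyme, 1 point per tumour, with gene names coloured by branch. Phgdh and Shmt2 are highest and Aldh1l1 lowest in both groups.

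The 10 enzymes did not peak in the same tumour. PEG-glutaminase 1 was the highest library for 6 of them, Phgdh, Psph and all 4 mitochondrial enzymes, and PEG-glutaminase 2 for 3, Psat1, Shmt1 and Mthfd1. Aldh1l1 was highest in vehicle 3. Vehicle 1, the tumour with skin transcripts, was the lowest library for Phgdh, Psat1, Psph, Shmt1, Shmt2 and Mthfd2. Mthfd1 and Aldh1l2 were lowest in vehicle 2, Mthfd1l in vehicle 3 and Aldh1l1 in PEG-glutaminase 2. Without vehicle 1, 4 enzymes had an unadjusted limma p under 0.05 in place of 7, as also without PEG-glutaminase 1. The log2 difference without vehicle 1 was 0.20 for Phgdh and 0.17 for Mthfd2, in place of 0.27 and 0.24. Centred on the mean of the 6 tumours, the mitochondrial branch stood at 0.32, 0.04 and 0.15 in PEG-glutaminase 1, 2 and 3. The cell cycle markers stood at 0.08, 0.30 and 0.07 in the same tumours, and the 12 other genes of the Atf4 response at 0.09, -0.23 and 0.14. Within its group PEG-glutaminase 2 was thus the highest by cell cycle markers and the lowest by the Atf4 list and by the mitochondrial branch. It was also the lowest by the mean of the cytosolic branch (0.15, 0.08 and 0.18 in PEG-glutaminase 1, 2 and 3), although Shmt1 and Mthfd1 were highest there. The remaining cytosolic enzyme, Aldh1l1, had its lowest value there, 38.6 normalized counts, and has only 39 to 64 reads a library. By serine synthesis PEG-glutaminase 3 was the lowest (0.19, 0.08 and 0.03).

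Cell cycle markers differed between groups in the same direction as most of the enzymes: 15 of 15 were higher, 11 of them without overlap (13.1% of all tested genes), with a median of 0.29. limma called 0 of them and DESeq2 called 3, Ccne2, Cdc6 and Mcm4, as higher, where it called 4.18% of genes and 1.87% as higher. Their summed level was 52991 to 58087 in vehicle and 64154 to 74583 in PEG-glutaminase tumours. T and NK cell markers went the other way, with 11 of 11 lower (median -1.69), 9 of them without overlap (12.7% of all tested genes), and sums of 4080 to 4871 against 544 to 3203. limma called 0 of them and DESeq2 called Cd3d and Icos as lower (adjusted p of 0.0124 and 0.014). Macrophage markers were higher in 5 of 8, with sums that overlap, 26443 to 38184 against 29927 to 34810. One of them, Mrc1, the mannose receptor, was apart between groups, with 2117, 2078 and 2655 normalized counts in vehicle and 5036, 8955 and 4725 in PEG-glutaminase tumours, and DESeq2 called it as higher (adjusted p = 0.00251) while limma did not. Endothelial markers were higher in 6 of 6 (median 0.22), 2 of them, Kdr and Cdh5, without overlap (13.1% of all tested genes). Their sums were 3096 to 3317 against 3251 to 4274, limma called 0 and DESeq2 called Kdr as higher (adjusted p = 0.0322). Fibroblast markers were higher in 4 of 8, with sums of 52225 to 70962 against 58824 to 74306 that overlap. Mrc1, Kdr, Cdh5 and the DESeq2 calls among markers were named after their values were seen. The part of these cells in the enzymes' values was not tested.

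**Figure D5:**
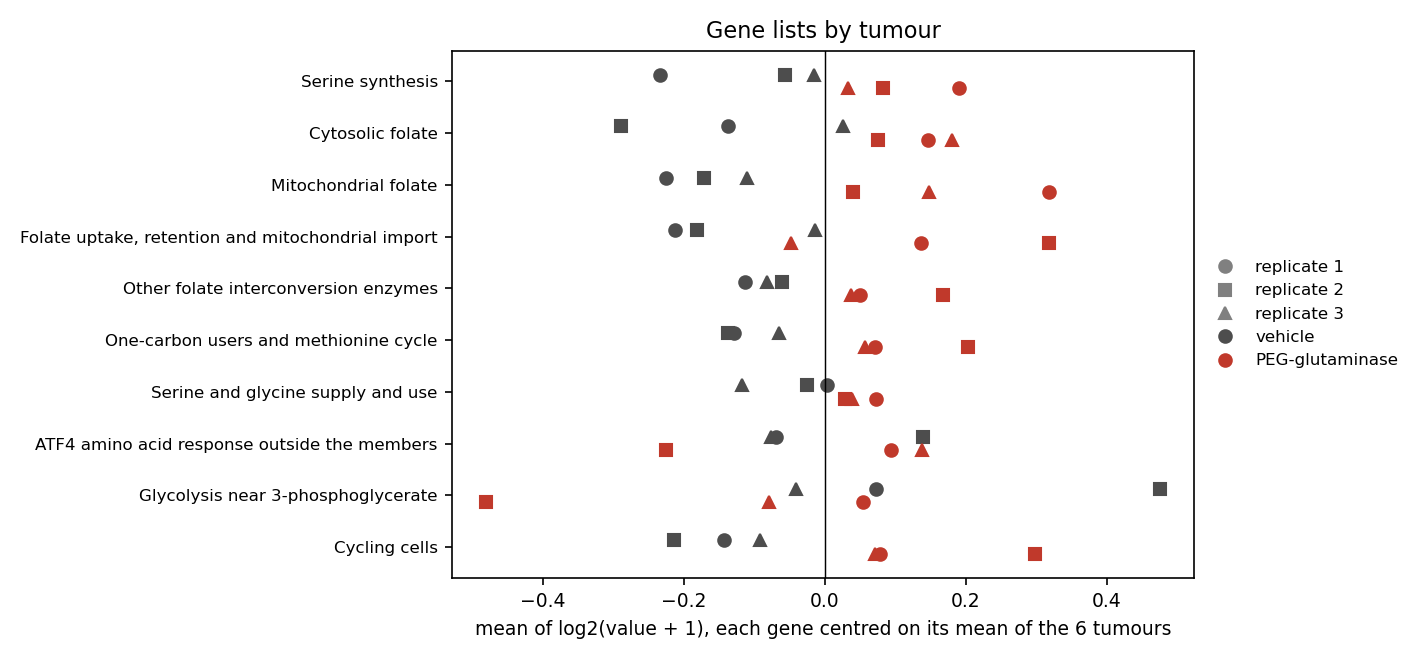
Mean of log2(value + 1) over the genes of each list (horizontal axis), each gene centred on its mean of the 6 tumours, 1 point per tumour. The 3 enzyme branches, the cell cycle markers and the lists of serine and glycine supply, other folate interconversion and one-carbon users separate the groups. The folate uptake list, the Atf4 list and the glycolysis list do not.

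The other genes of the pathway, in fixed lists, had 0 members called by limma. As a background for the counts of these lists, 50% of all tested genes were higher and 18.4% had an unadjusted p under 0.05 in limma. DESeq2 called 4.18% of genes, 1.87% as higher. Among carriers and enzymes that supply or use serine and glycine, 10 of 16 tested were higher (median 0.07, 2 at an unadjusted p under 0.05). Slc1a5, which exchanges glutamine and serine, had 5415, 5111 and 6070 normalized counts in vehicle against 7929, 7034 and 6686, apart between groups (log2 0.38 ± 0.10; limma adjusted p = 0.133), and DESeq2 called it (adjusted p = 0.0157). Slc1a4, a carrier of alanine, serine and cysteine, stood at 0.28 ± 0.11. Cbs and Cth, which lead serine into cysteine, were at or under a mean of 1.95 normalized counts in both groups, and Sds was not tested either.

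In folate uptake, retention and mitochondrial import 5 of 6 tested genes were higher (median 0.20, 3 at an unadjusted p under 0.05). Folr2, a folate receptor best known on tissue-resident macrophages, had 311, 287 and 377 normalized counts in vehicle and 546, 906 and 539 in PEG-glutaminase tumours. It stood at 0.99 ± 0.21 (limma adjusted p = 0.122) and was called by DESeq2, while Fpgs, which adds the glutamate tail that keeps folate in cells, stood at 0.25 ± 0.10. Slc25a32, the mitochondrial folate carrier, had means of 627 and 737 normalized counts and a log2 difference of 0.23.

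Other folate interconversion enzymes were higher in 4 of 5 tested (median 0.17). Sardh, the mitochondrial sarcosine dehydrogenase, had 1265, 1233 and 1292 against 1546, 1759 and 1476 normalized counts (0.33 ± 0.09; limma adjusted p = 0.134), apart between groups, and DESeq2 called it. Mthfd2l, the isoform of Mthfd2, was the 1 lower, at -0.14 with overlapping groups. Of enzymes that use one-carbon units or belong to the methionine cycle 8 of 9 tested were higher (median 0.24, 4 at an unadjusted p under 0.05). Gart, which takes 10-formyl-folate for purines, had 1558, 1591 and 1784 against 2219, 2326 and 2105 normalized counts (0.43 ± 0.08; limma adjusted p = 0.111), and Mtr, methionine synthase, stood at 0.54 ± 0.13. DESeq2 called Gart and Mtr.

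Regulators known for this pathway showed no common direction, with 5 of 11 tested higher (median -0.0005). Atf5 had 13787, 14054 and 12627 normalized counts in vehicle and 17407, 16627 and 16707 in PEG-glutaminase tumours (0.33 ± 0.09; limma adjusted p = 0.135), and DESeq2 called it, whereas Atf4 itself stood at -0.05 and Myc at 0.06, both with overlapping groups. Trp53 stood at 0.17 ± 0.07. The 12 other Atf4 response genes were split, 6 higher and 6 lower (median 0.02), with Nupr1, a stress protein, lowest in p at -0.48 ± 0.13, apart between groups and called by DESeq2 as lower (adjusted p = 0.0281). The 4 glycolytic enzymes of the list were all lower (median -0.30, 1 at an unadjusted p under 0.05), though not all act on 3-phosphoglycerate. Pkm, later in glycolysis, stood at -0.37 ± 0.14 without overlap. Pgam1, which uses 3-phosphoglycerate, stood at -0.23 ± 0.14 with overlap.

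Genes with the most similar pattern over the 6 tumours were taken from 10991 expressed genes, as a description over 6 libraries that share their group difference. For the mean of the serine synthesis enzymes these were Serpinh1 (r = 0.997), B430306N03Rik (r = 0.992) and Srm (r = 0.986), and 156 genes had r of at least 0.9. For the cytosolic folate branch they were Exog (r = 0.997), Ssh2 (r = 0.995) and Sec16b (r = 0.986), and for the mitochondrial branch Lman2l (r = 0.996), Tmcc3 (r = 0.98) and Armc6 (r = 0.979). The cytosolic mean gives Aldh1l1, with 39 to 64 reads a library, the same weight as Shmt1 and Mthfd1.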

How the data were processed

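Poly-A RNA of 6 tumours, 1 per mouse, was compared between groups given by the sample titles. The deposited table holds, for each BALB/cJ gene model, a signal in normalized counts (reads divided by a library size factor), and the authors' own comparison: log2 fold changes and their errors, a Wald score, and raw and adjusted p-values, per the file headers. Tools named in the submitters' processing notes are STAR, featureCounts, FastQC, DESeq and DESeq2, with no version. The build, the strand setting and the handling of shared reads are not given in the sources used. Of 40396 rows 93 repeat a model and were dropped. All non-zero values (100%) were whole multiples of 1 read within 0.01, so reads were recovered; for PEG-glutaminase 2 this rests on the values alone, its step being near 1. Models without a symbol hold 0.13% to 0.214% of reads.

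limma 3.58.1 (R 4.3.3; mean trend, robust, two-sided) was fitted to log2(value + 1) of 13557 genes with a mean of at least 10, with Benjamini-Hochberg adjustment and a threshold of 0.05, and checked on simulated counts. With 3 tumours a group no exact permutation p can fall below 0.1. Alternatives were pseudocounts, filters, TMM scaling, edgeR 4.0.16, DESeq2 1.42.0, limma-voom, a replicate block and each library left out; leaving out vehicle 1 and PEG-glutaminase 2 together was added after seeing the data. Lengths came from GENCODE M21 (GRCm38) by Ensembl identifier and upstream sequences from RefSeq (9 of 10 matched). The enzymes and lists were chosen with earlier results of these data known. Named genes are the 10 enzymes, the 2 of smallest p in each pathway list, any called, and the 3 most similar per branch; Slc25a32, Mthfd2l, Atf4, Myc, Cbs, Cth and Sds were named after their values were seen. 1 gene that the rule names is not reported here.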

Additional observations from a re-analysis of the deposited data

How the results depend on the processing

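The count of genes called by limma was 5, and it was 136 with no filter, 500 by DESeq2, 0 by edgeR (2554 at an unadjusted p under 0.05), 1 with the replicate number as a block, and 0 to 26 with 1 library left out. Of the 10 enzymes 0 were called, and 3 with no filter, 3 by DESeq2 and 0 to 1 with 1 library left out. The cause of these differences was not tested. With no filter limma tested 23228 genes, those near 0 included, and its variance estimates were fitted anew. The block called 0 enzymes. Deviations of same-numbered tumours from their group means correlated with r of -0.129, -0.214 and -0.22. With 3 tumours a group these values cannot tell whether the numbers pair the mice, and the sources used here do not say. Medians stayed within 1 SD of the spread between tumours under every alternative run: 0.19 to 0.29 for the 10 enzymes, 0.15 to 0.24 for serine synthesis, 0.35 to 0.49 for cytosolic and 0.20 to 0.30 for mitochondrial enzymes. Aldh1l1 changed sign in 3 alternatives (range -0.25 to 0.12 with 1 library left out, 0.18 without vehicle 1 and PEG-glutaminase 2), and the other 9 kept theirs in all. With merged exon lengths the mitochondrial to cytosolic ratio in vehicle tumours was 5.77. Aldh1l1 had 39 to 64 reads a library.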

Other observations

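The comparison columns of the authors' deposited table do not match the values of the 6 libraries. Of 17075 gene models at 0 in all 6 libraries, 567 have a mean above 0 in the authors' deposited table. For Aldh1l2 the mean in that table was 1302, while the 6 libraries average 1256, and for Phgdh it was 13208 against 12923. The log2 fold changes of the 10 enzymes differ with it: the authors' deposited table gives 0.49 for Aldh1l2, 0.21 for Shmt2 and 0.11 for Mthfd2, and the limma values from the 6 libraries are 0.68, 0.30 and 0.24. Aldh1l1 has a positive value in the authors' deposited table, 0.08, and -0.06 here. Which libraries and counts entered that comparison is not stated in the sources used here, and the reason for the mismatch was not tested.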
